A study of Mus musculus with 24 samples.

Results

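The cytosolic ribosomal protein genes are the genes whose name in the array files starts with Rpl or Rps followed by a digit. The 10 names starting with Rps6k, which belong to protein kinases, were left out. The rule found 84 of the 34844 gene names on the array. Of these, 72 are canonical subunits, 43 of the large (60S) and 29 of the small (40S) ribosomal subunit. The other 12 are 8 paralogues, 3 names that mark pseudogenes and 1 binding protein, Rps19bp1. The brightest detected probe stood for each gene.

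The ribosome is the machine that translates mRNA, and its protein subunits are made in matched amounts and assembled with ribosomal RNA in the nucleolus. Messenger RNAs of these subunits carry a 5′ terminal oligopyrimidine (TOP) tract, a C followed by a run of C and T, through which mTORC1 signalling controls their translation. A few subunits have paralogues that can take their place, such as Rpl3l, the form of Rpl3 found in heart and skeletal muscle, and several free subunits, Rpl5 and Rpl11 among them, bind Mdm2, the ubiquitin ligase of p53.

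RNA was measured on 24 single-colour arrays of live cardiomyocytes isolated from mouse hearts on a Langendorff apparatus. The mice, of mixed 129SvEv/C57BL/6 background, given as male and 6 weeks old, were wild type (WT) or Top2b-/-, with Top2b deleted in the heart only. Top2b codes for DNA topoisomerase II beta, a target of doxorubicin, the anthracycline used against tumours. Each genotype received PBS or doxorubicin at 25 mg/kg into the peritoneum and hearts were taken 16 h or 72 h later, which gives 8 groups of 3 arrays, numbered 1 to 3 at 16 h and 2 to 4 at 72 h. The labels do not name the Cre line that deleted Top2b, and nothing in them says whether replicates came from separate animals; p-values therefore reflect the spread between arrays, which may be technical. The 2 times were hybridised on different slides and were not compared by a test.

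Top2b was lower in the Top2b-/- arrays, at 2.99 ± 0.28 (SD, n = 6) against 4.20 ± 0.16 (SD, n = 6) in WT at 16 h, on a log2 scale relative to the 75th percentile of each array. At 72 h it was 2.51 ± 0.34 against 3.43 ± 0.17 (SD, n = 6 each). The exact permutation test, two-sided, gave p = 0.00216 at each time. The genotype was taken from the sample titles; a second label field gives another genotype for 4 arrays at 16 h. All 10 cardiomyocyte markers were well above background on all arrays of each group, and so were all 7 endothelial and all 6 smooth muscle and pericyte markers, so detection alone does not tell the labelled cells from these types. Several facts of the arrays go with the groups. Although the labels give male mice, Ddx3y, a Y-linked gene, was well above background on all 3 WT PBS arrays of 16 h, but on 1 of 3 WT doxorubicin, 0 of 3 Top2b-/- PBS and 1 of 3 Top2b-/- doxorubicin arrays of that time. Xist, the X-linked transcript of female cells, was well above background on exactly the arrays where Ddx3y was not. In the same order these were 0, 2, 3 and 2 arrays at 16 h and 2, 3, 2 and 3 at 72 h. Esr1, the oestrogen receptor gene whose hormone-binding part is built into tamoxifen-activated Cre proteins, ranged from 5.04 to 6.45 on the 6 Top2b-/- arrays of 16 h, from -5.95 to -5.48 on the WT PBS arrays and from -5.43 to 1.05 on the WT doxorubicin arrays. At 72 h it ranged from -6.18 to 8.58 within the WT PBS arrays. At 16 h all 6 WT arrays and Top2b-/- PBS replicates 1 and 2 lay on slide 1, and the other 4 arrays on slide 2; at 72 h slide 3 held replicates 2 and 3 of every group and slide 4 held replicate 4. The part of these differences in the results below was not tested, except where a value with slide or Y-linked transcripts in the fit is given.

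The start sites of 5 members are printed as chosen examples of a pyrimidine run at or near the annotated start. They come from RefSeq (build GRCm38.p6), run 5′ to 3′ on the gene's strand from 10 bases before the annotated start, and have the pyrimidine run in capitals. Rps6 lies at chr4:86857348-86857377 (minus strand), Rps27 at chr3:90213629-90213658 (minus), Rpl12 at chr2:32961702-32961731 (plus), Rpl22l1 at chr3:28805498-28805527 (plus) and Rps27l at chr9:66946076-66946105 (plus).
Rps6: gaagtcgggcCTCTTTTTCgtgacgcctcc
Rps27: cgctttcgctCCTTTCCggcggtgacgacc
Rpl12: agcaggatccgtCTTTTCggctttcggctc
Rpl22l1: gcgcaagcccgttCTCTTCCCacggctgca
Rps27l: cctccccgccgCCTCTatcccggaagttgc
In Rps6 and Rps27 the run of 9 and 7 pyrimidines began exactly at the annotated start, while in Rpl12 it began 2 bases, in Rpl22l1 3 bases and in Rps27l 1 base after it. Where a gene had more than 1 annotated start, a start with a run within 5 bases was printed, so the examples do not show how common runs are. Whether the runs of Rpl12, Rpl22l1 and Rps27l act as TOP tracts was not tested. A C followed by at least 4 pyrimidines stood at the annotated start of 12 of the 52 canonical subunits in the RefSeq table (23.1%), against 3.01% of its 27025 genes. Within 5 bases of the start on either side, the shares were 48.1% and 21.2%. Only the transcribed strand was read, since the tract is part of the RNA, and a start annotated a few bases off hides a tract from the exact count. The response to doxorubicin in WT hearts at 16 h, described next, was also split by a run at the exact start. The median log2 difference was 0.25 for the 12 subunits with it, of which 2 were called higher. It was 0.25 for the 40 without it, of which 12 were called higher. The split was not tested and cannot show whether the tract matters. With 25 of the 52 having a run within 5 bases, the 40 include subunits with a run nearby.

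The array measures each gene with 60-base probes. The probes shown belong to members described below: Rps27l with its canonical partner Rps27, Rpl12, Rps19, and Rpl3 with its muscle paralogue Rpl3l. Positions are those of the array files (build mm9), 5′ to 3′ as spotted, and a span longer than 60 bases crosses an intron. Rps27l lies at chr9:66795486-66797176, Rps27 at chr9:114891672-114891731, Rpl12 at chr2:32819082-32819298, Rps19 at chr7:25670166-25670225, Rpl3 at chr15:79908489-79908772 and Rpl3l at chr17:24872413-24872681.
Rps27l: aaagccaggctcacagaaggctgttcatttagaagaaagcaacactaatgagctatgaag
Rps27: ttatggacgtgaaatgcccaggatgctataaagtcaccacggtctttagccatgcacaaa
Rpl12: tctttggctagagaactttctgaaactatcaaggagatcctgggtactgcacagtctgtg
Rps19: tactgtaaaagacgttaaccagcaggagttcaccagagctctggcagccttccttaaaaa
Rpl3: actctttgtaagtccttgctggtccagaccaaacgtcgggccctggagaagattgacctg
Rpl3l: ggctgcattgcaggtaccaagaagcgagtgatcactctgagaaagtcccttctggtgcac
The mouse genome holds many processed copies of these genes, and the array's own placement shows it: RefSeq puts Rps27 on chromosome 3, but its probe is placed on chromosome 9. The same holds for 7 of the 71 canonical subunits with both positions (by the probe used for their level), among them Rpl3, Rps4x, Rps27 and Rps29. Signal from a parent gene and its copies cannot be told apart on such probes. A level is comparable between arrays for 1 probe, never between probes, so no member's level is set against another's.

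Of the 84 members, 82 were tested at both times. Rpl10l, a paralogue of Rpl10 known from testis, was well above background on 0 of 24 arrays and Rpl39l, the paralogue of Rpl39, on 7. The other 82 were well above background throughout 1 group or more, the condition for a test.

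In WT hearts 16 h after doxorubicin, ribosomal protein mRNAs stood above PBS almost without exception, with a paralogue in the lead. Rpl22l1, the paralogue of Rpl22, rose 2.05-fold, Rps27l, the paralogue of Rps27 and a known p53 target, 1.64-fold, Rpl12, at the base of the stalk that recruits elongation factors, 1.60-fold, and Rps19, the subunit most often mutated in Diamond-Blackfan anaemia, 1.54-fold. In all, 19 of 82 members were called higher (23.2%, against 13.7% of all 18743 genes) and 0 lower (14.1% of all genes were called lower, and 27.7% in either direction), by limma with Benjamini-Hochberg adjustment at 0.05. The median member lay at 0.25 on the log2 scale and the median gene at -0.03. All 72 canonical subunits had a doxorubicin mean above the PBS mean, with a median of 0.23 for the large and 0.28 for the small subunit.

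Rpl22l1 had levels of 4.22, 4.33 and 4.58 on the WT PBS arrays and 5.51, 5.22 and 5.50 on the WT doxorubicin arrays. The groups lay far apart, a log2 difference of 1.03 ± 0.15 (SE, adjusted p = 0.000841, n = 3 each). Over the alternative settings of the analysis its adjusted p ran from 0.000261 to 0.385, the highest with the genotypes of the conflicting label field. Its partner Rpl22 moved little by the probe used, at 6.69, 6.74 and 6.90 against 6.91, 6.85 and 6.89. The difference was 0.11 ± 0.10 (SE, adjusted p = 0.453 by limma). A second Rpl22 probe gave 0.41, so the size of this contrast depends on the probe.

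Rps27l stood at 5.80, 6.04 and 6.09 in PBS and at 6.89, 6.41 and 6.79 in doxorubicin, 0.72 ± 0.15 (SE, adjusted p = 0.00523). Here the canonical partner rose as well. Rps27 went from 7.84, 7.68 and 8.003 to 8.37, 8.29 and 8.33, 0.49 ± 0.11 (SE, adjusted p = 0.00781), and its 4 probes gave log2 differences of 0.49, 0.51, 0.51 and 0.53.

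Rpl12 moved from 6.82, 6.87 and 7.20 to 7.74, 7.58 and 7.58, 0.68 ± 0.12 (SE, adjusted p = 0.00287); its second probe gave 0.77. Rps19 moved from 5.27, 5.29 and 5.61 to 6.06, 5.94 and 6.02, 0.62 ± 0.12 (SE, adjusted p = 0.00403). Rps19bp1, which binds Rps19 and has been described as a regulator of the deacetylase Sirt1, moved from 2.38, 2.53 and 2.61 to 3.11, 2.87 and 2.81, 0.42 ± 0.13 (SE, adjusted p = 0.0292 by limma). For Rpl22l1, Rps27l, Rps27, Rpl12, Rps19 and Rps19bp1 alike, no doxorubicin array fell below a PBS array, and PBS replicate 3 was the highest of the PBS arrays.

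Rpl5, which with Rpl11 and 5S RNA forms the particle that binds Mdm2, rose by 0.43 ± 0.13 (SE, adjusted p = 0.0308). For Rpl11 the difference was 0.20 ± 0.10 (SE, adjusted p = 0.18). Rps6, the subunit phosphorylated by S6 kinase, rose by 0.43 ± 0.11 (SE, adjusted p = 0.0182). Others called higher included Rpl9, Rps12, Rpl13a, Rpl10a, Rps3, Rps16 and Rps9, with log2 differences from 0.48 for Rpl9 and 0.46 for Rps12 down to 0.32 for Rps9. At the other end stood Rpl7l1, the paralogue of Rpl7, at -0.29, Rpl3l at -0.11, Rps2 at 0.01 and Rpl39, which lines the exit tunnel of the nascent chain, at 0.05, none of them called.

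**Figure D1:**
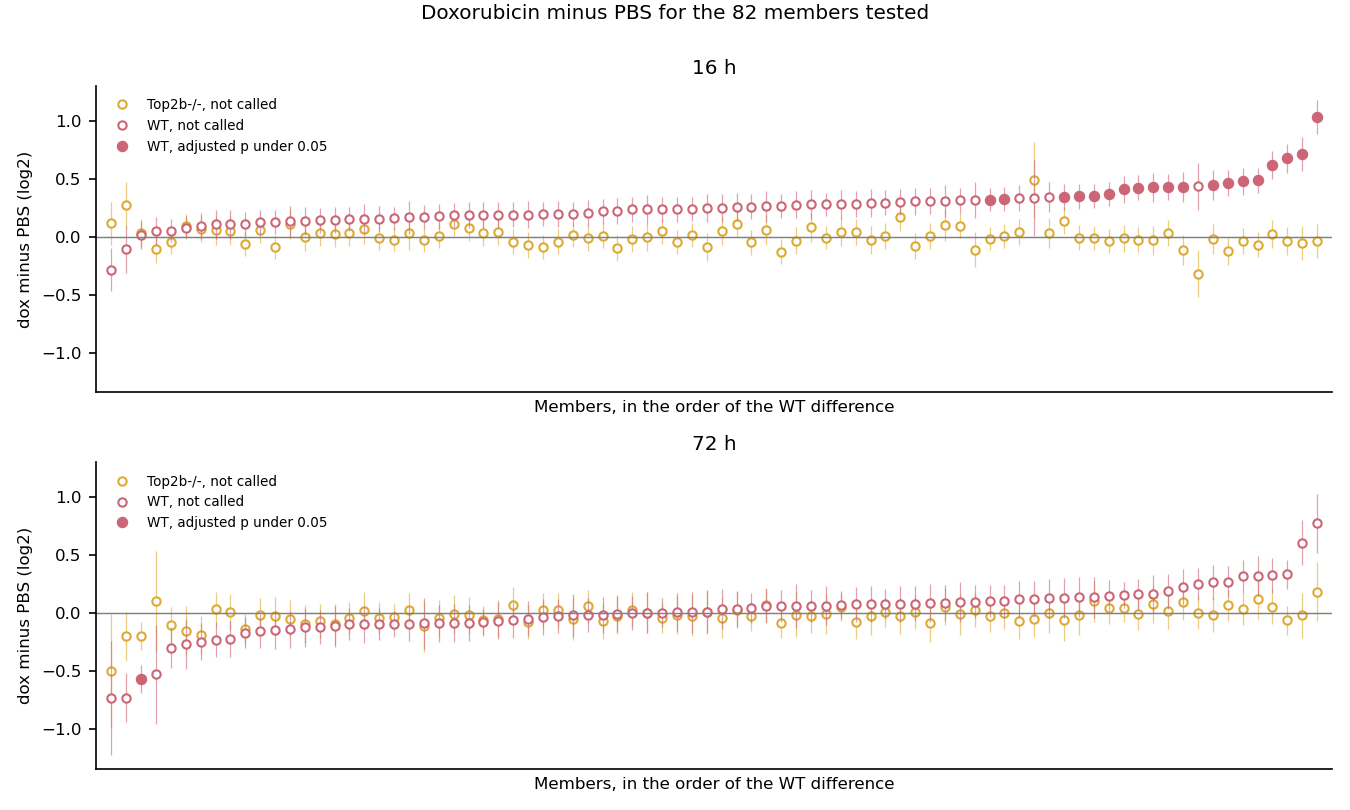
Log2 difference between doxorubicin and PBS (y axis) for each of the 82 tested members (x axis, unnamed, in the order of the WT value) at 16 h and 72 h; points are limma estimates with SE, red for WT, yellow for Top2b-/-, and filled points are past the adjusted p of 0.05. At 16 h 80 of the 82 WT points lie above 0 and 19 are filled; the Top2b-/- points scatter around 0; at 72 h the filled point is Rps19bp1.

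The agreement between probes was close for most members. Of the 176 member probes well above background on all 24 arrays, 167 had a higher mean in WT doxorubicin than in WT PBS. Over the 54 members with more than 1 such probe, the median range between probes was 0.06. In 48 of these 54, all probes went in 1 direction. Rps25 was the widest exception, at 0.22 by the probe used and -0.63 by a dim one. Rpl13a, called higher, was at 0.45 by the probe used but at 0.07 and 0.04 by its other probes.

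The 3 PBS arrays differed in how far the subunits lay below the rest. Relative to each gene's mean over the 12 arrays of 16 h, the median canonical subunit lay at -0.23 on WT PBS replicate 1 and at -0.25 on replicate 2, where all 72 subunits were below 0, but at -0.0048 on WT PBS replicate 3. The 3 WT doxorubicin arrays lay at 0.08, 0.10 and 0.12 and the 6 Top2b-/- arrays between -0.02 and 0.08. For 56 of the 72 subunits, WT PBS replicates 1 and 2 were below all 10 other arrays. Without WT PBS replicate 1 the count of called members was 7 (8.54%, with 20.9% of all genes called in either direction), without replicate 2 it was 5 (6.1%, with 19.4%), without replicate 3 it was 25 (30.5%, with 21% of all genes), and without WT doxorubicin replicate 2 it was 12. The median member without each PBS array in turn was 0.21, 0.20 and 0.32. With replicate 3 as the only WT PBS array, a choice made after these deviations were seen, the median member lay at 0.08 and the median gene at -0.04; the 0 calls among members and 1308 among all genes of that fit rest on a spread taken from the other groups. The 75th percentile of these 3 PBS arrays was 195, 222 and 180, and 45.6%, 46.3% and 42.9% of spots were well above background, the last the lowest of the 24 arrays. The part of this in the shift was not tested.

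**Figure D2:**
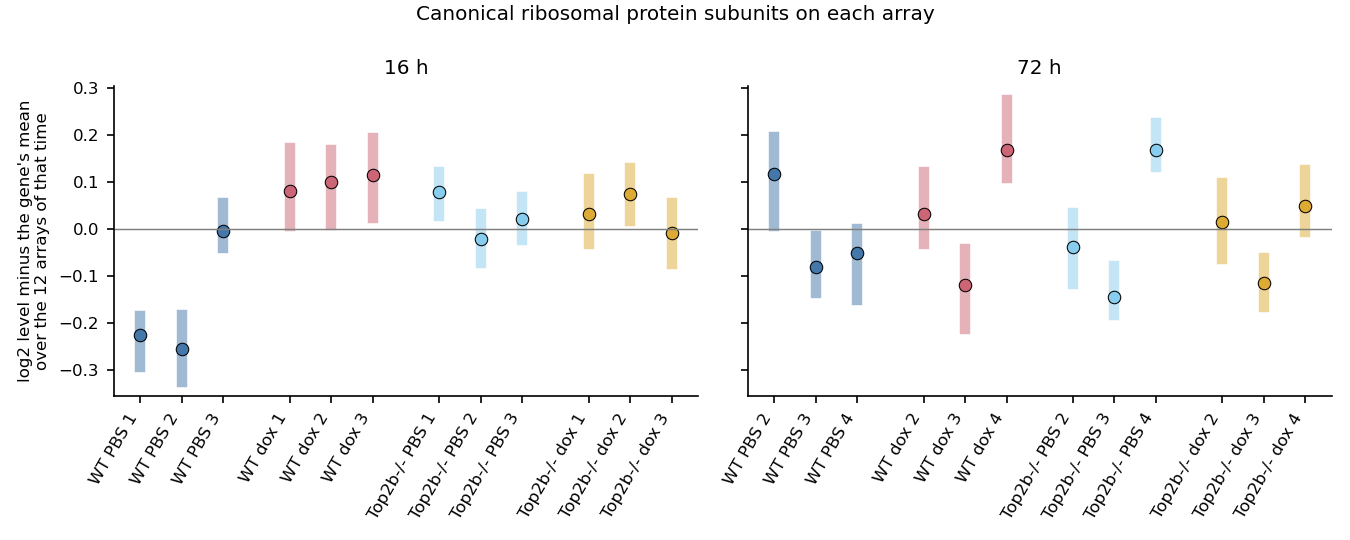
Deviation of the canonical subunits on each array (x axis) from each gene's mean over the 12 arrays of that time (y axis, log2); points are medians over the subunits and bars span the quartiles. At 16 h WT PBS replicates 1 and 2, at -0.23 and -0.25, stand below all other arrays; at 72 h the arrays range from -0.14 to 0.17, the groups overlap, and replicate 3 is the lowest array of each group, at -0.08 to -0.14.

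The fit with slide as a block called 14 members (17.1%, with 24.5% of all genes called in either direction). The fit with a covariate for Y-linked transcripts called 7 members (8.54%) but 28.2% of all genes, so the members' count fell while that of all genes did not. The fit within slide 1, which held all 6 arrays, called 5 members (6.1%) and 17.6% of all genes. When each array was scaled to the median canonical subunit in place of its 75th percentile, all genes moved down by 0.25 and the calls split into 4 higher (Rpl22l1, Rpl12, Rps19 and Rps27l) and 1 lower (Rpl7l1), against 19 and 0. This scaling takes out the members' shared shift by construction, so its lower count says nothing on that shift. The median member minus the median gene stayed at 0.27.

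In Top2b-/- hearts, no response to doxorubicin was called at 16 h. The count was 0 of 82 members and 0 of 18743 genes (0% called), by limma; at an unadjusted p under 0.05 it was 0 members and 794 genes. The median member lay at -0.0006, with 41 members above and 41 below 0. Rpl22l1 was 5.31, 5.10 and 4.95 in PBS and 4.98, 5.25 and 5.02 in doxorubicin, Rps27l 6.09, 6.07 and 6.08 against 6.19, 5.87 and 6.04, and Rps19 5.57, 5.50 and 5.50 against 5.41, 5.65 and 5.59. In each the treatments overlapped.

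The responses themselves differed between genotypes for 6 members, all lower in Top2b-/- than in WT (7.32%, against 5.24% of all genes called lower), and for 0 in the other direction (6.11% of all genes, 11.3% in either direction). The difference of responses, Top2b-/- minus WT, was -1.07 ± 0.21 for Rpl22l1 (adjusted p = 0.0112), -0.77 ± 0.21 for Rps27l (adjusted p = 0.0397), -0.71 ± 0.17 for Rpl12 (adjusted p = 0.0268), -0.59 ± 0.17 for Rps19 (adjusted p = 0.049), -0.59 ± 0.16 for Rps12 (adjusted p = 0.0414) and -0.56 ± 0.15 for Rps27 (adjusted p = 0.0412), each with its SE by limma. With slide as a block the count was 0, with 2% of all genes called in either direction. Without WT PBS replicate 1 or 2, Top2b-/- PBS replicate 1, 2 or 3, or Top2b-/- doxorubicin replicate 2 or 3, the count was 1 each time (1.22%). The share of all genes in these fits lay between 5.39% and 7.91%. Without WT doxorubicin replicate 2 the count was 3 (3.66%, with 9.34%). With WT PBS replicate 3 as the only array of its group, the median member lay at -0.08 and the median gene at 0.03.

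**Figure D3:**
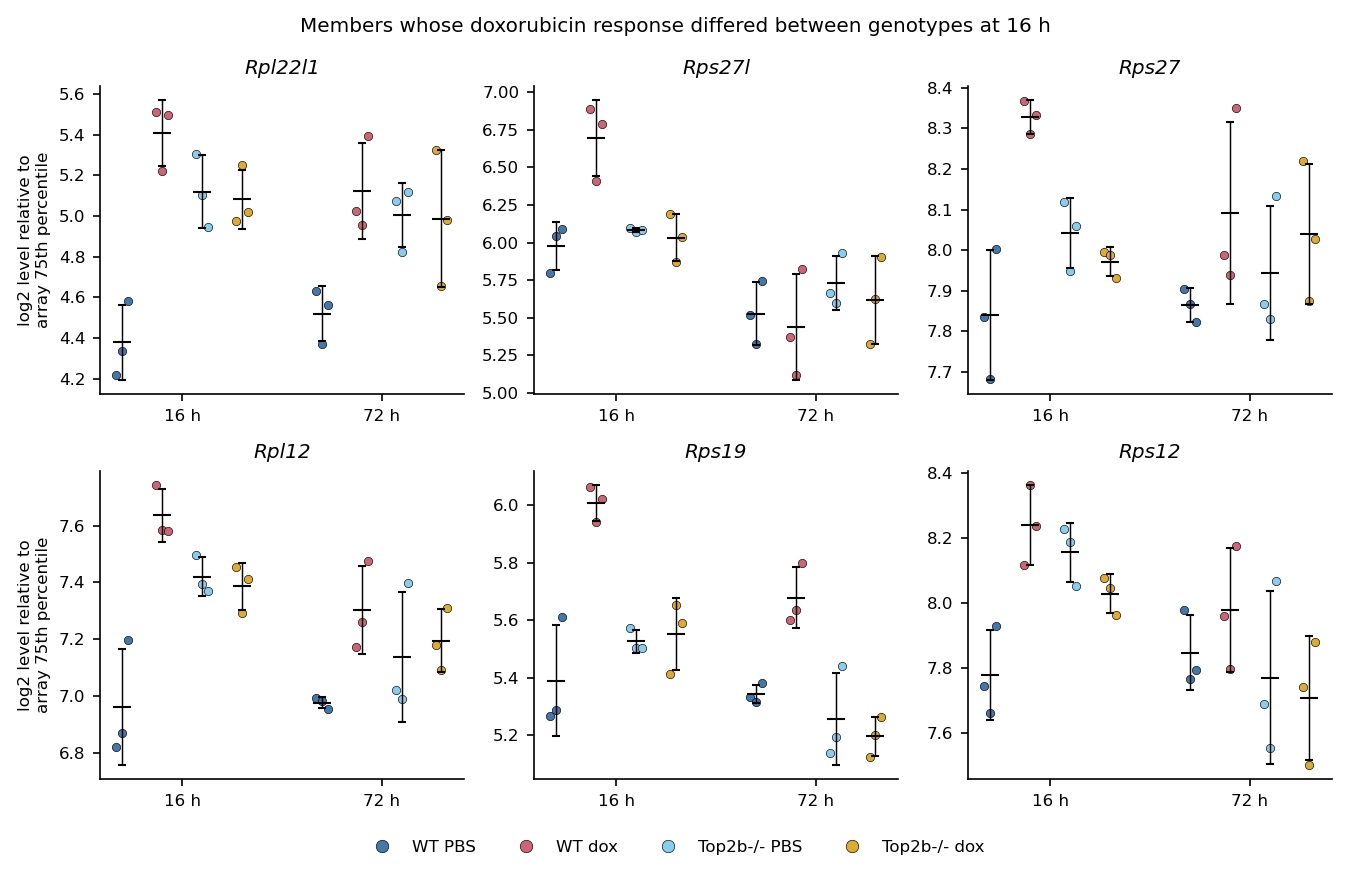
Log2 level relative to the array's 75th percentile (y axis, a separate scale for each gene) of the 6 members whose response differed between genotypes at 16 h, in the 4 groups at 16 h and 72 h (x axis); points are arrays, bars the mean and SD of 3. At 16 h the WT doxorubicin points of Rpl22l1 (5.22 to 5.51) stand clear of the WT PBS points (4.22 to 4.58), with the Top2b-/- points of both treatments between 4.95 and 5.31.

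As that plot shows, the genotypes did not start level. In PBS at 16 h, 8 of 82 members were higher in Top2b-/- than in WT (9.76%, against 6.72% of all genes) and 0 lower (5.65% of all genes), all 8 of the large subunit or its relatives. Rpl3, at the catalytic centre of the large subunit, led with a 2.01-fold difference: 5.43, 5.34 and 5.91 in WT against 6.47, 6.69 and 6.53 in Top2b-/-, 1.005 ± 0.201 (SE, adjusted p = 0.0112). Its second probe, shown above, gave 1.15. Rpl22l1 was 1.67-fold higher, 0.74 ± 0.15 (SE, adjusted p = 0.0107), and Rpl39 1.48-fold higher, from 5.94, 6.02 and 6.30 to 6.74, 6.59 and 6.62, 0.56 ± 0.12 (SE, adjusted p = 0.0141).

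Rpl34-ps1, a name that marks a pseudogene of Rpl34, was 5.34, 5.27 and 5.54 in WT and 6.03, 5.93 and 5.88 in Top2b-/-, 0.57 ± 0.11 (SE, adjusted p = 0.00903), and Rpl34 itself differed by 0.41 ± 0.11 (SE, adjusted p = 0.0352). RefSeq places this pseudogene on chromosome 6. By the array, however, its probe lies at chr3:130429798-130429857 and overlaps the span of the Rpl34 probe, chr3:130429830-130431677. Signal under the name Rpl34-ps1 can therefore not be told apart from Rpl34, here and below, and the calls of this pair are not separate results. Rpl10, which joins the large subunit late in its maturation, differed by 0.56 ± 0.15, Rpl36a by 0.53 ± 0.11 and Rpl12 by 0.46 ± 0.12 (SE, adjusted p = 0.0397, 0.0137 and 0.0356 by limma). Rpl10, Rpl36a and Rpl39 are X-linked. The fourth X-linked member, Rps4x, differed by 0.24 ± 0.11 (SE, adjusted p = 0.214 by limma). Xist was well above background on all 3 Top2b-/- PBS arrays and on 0 of 3 WT PBS arrays of 16 h, and its part in these values was not tested.

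The same WT PBS arrays weigh here as above, and leaving out any array of these 2 groups also lowered the 12.4% of all genes called. With WT PBS replicate 3 alone as the WT group the median member lay at 0.04 and the median gene at -0.04. The count was 4 with slide as a block (4.88%, with 6.49% of all genes called in either direction). Within slide 1 it was 2 (2.44%, with 4.1%). With a covariate for Y-linked transcripts, which separate all arrays of these groups, it was 2 (2.44%, with 9.46%). Without WT PBS replicate 1 the count fell to 4 (6.2% of all genes called), and without replicate 2 to 3 (6.7%). Without replicate 3 it was 9 (7.19%). It fell to 2 without Top2b-/- PBS replicate 1 (5.09%), and to 4 without its replicate 2 (5.37%) or 3 (6.49%). Without Top2b-/- doxorubicin replicate 2 it was 5 (9.61%), and with another background correction (normexp) it was 21 (13.7%).

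Over both treatments, 6 arrays against 6, 5 members separated the genotypes with no overlap at 16 h (6.1%, against 11.5% of all genes). Rpl39 ranged from 5.94 to 6.30 in WT and from 6.43 to 6.74 in Top2b-/-, Rpl34-ps1 from 5.27 to 5.65 against 5.82 to 6.03, and Rpl36a from 5.28 to 5.76 against 5.84 to 6.05. Rpl22 ranged from 6.69 to 6.91 against 6.91 to 7.12, a gap smaller than the printed digits. Its second probe gave the other direction, a mean difference of -0.29 (Top2b-/- minus WT) against 0.19 by the probe used. Rpl11 went the other way, from 7.93 to 8.25 in WT and from 7.77 to 7.91 in Top2b-/-. By limma, 7 members were higher (8.54%, against 16.1% of all genes) and 1, Rpl11, lower (1.22%, against 14.5%). The largest differences were 0.63 ± 0.14 for Rpl3 (SE, adjusted p = 0.00827), 0.49 ± 0.08 for Rpl39 (adjusted p = 0.00207) and 0.45 ± 0.08 for Rpl34-ps1 (adjusted p = 0.00197); for Rpl11 it was -0.29 ± 0.07 (adjusted p = 0.015). With slide as a block the count was 0, with 2.4% of all genes higher and 1.52% lower. In the fit without a block both shares of members lay below the background of all genes.

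At 72 h the differences of Rpl11 and Rpl34-ps1 had the sign they had at 16 h, at -0.33 ± 0.11 (SE, adjusted p = 0.0974) and 0.38 ± 0.13 (SE, adjusted p = 0.0924), neither past the threshold in the fit without a block. Rps19bp1 was the member called over both treatments at that time, 0.37 ± 0.09 higher in Top2b-/- (SE, adjusted p = 0.0217; 1.22% of members against 6.44% of all genes). With slide as a block the calls at 72 h were 3 higher, Rps19bp1, Rpl34-ps1 (adjusted p = 0.0195) and Rpl7l1, and 1 lower, Rps19, with 10.3% of all genes higher and 8.76% lower. With the replicate number as a block they were 4 higher and 2 lower, with Rpl39 and Rpl11 (adjusted p = 0.0283) added to those 4 and 12.2% of all genes higher and 9.37% lower. Both shares of members lay below those of all genes in each of these fits.

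**Figure D4:**
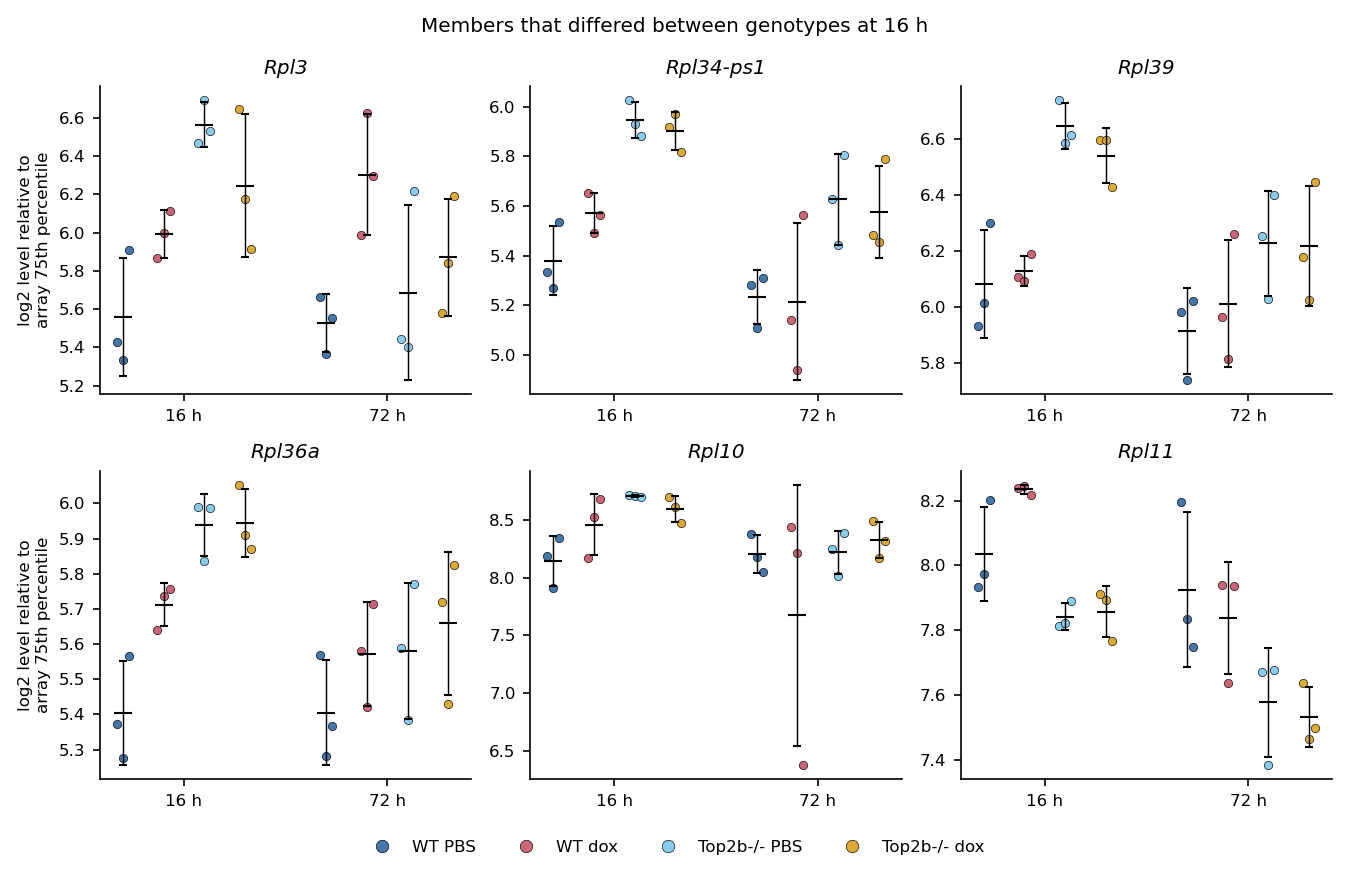
Log2 level relative to the array's 75th percentile (y axis, a separate scale for each gene) of 6 members that differed between genotypes at 16 h, in the 4 groups at 16 h and 72 h (x axis); points are arrays, bars the mean and SD of 3. At 16 h the Top2b-/- arrays lie above all WT arrays for Rpl39, Rpl36a and Rpl34-ps1 and below them for Rpl11; the low Rpl10 point at 72 h is WT doxorubicin replicate 4, at 6.38.

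At 72 h few ribosomal protein genes were called in WT hearts. After doxorubicin, 0 of 82 members were called higher (0.997% of all 19659 genes were) and 1 lower, Rps19bp1 (1.22%, against 1.82% of all genes); at an unadjusted p under 0.05, limma gave 4 higher and 2 lower. Rps19bp1 fell from 2.38, 2.17 and 2.19 to 1.67, 1.59 and 1.78, by 0.57 ± 0.12 on the log2 scale (SE, adjusted p = 0.044). That call was lost within slide 3 and without WT PBS replicate 2 or 3, WT doxorubicin replicate 2, 3 or 4, Top2b-/- PBS replicate 2, 3 or 4, or Top2b-/- doxorubicin replicate 3 or 4. With the replicate number as a block the calls were 3 higher, Rpl3, Rpl22l1 and Rps19, and 2 lower, Rps19bp1 and Rpl3l (6.1% of members, with 16.8% of all genes called in either direction).

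As a group the members lay above the median gene at 72 h, but by less than the spread between arrays. The SD between arrays of a group, for the members' median relative to all genes, was 0.11 at 72 h and 0.07 at 16 h. The median member was at 0.02 and the median gene at -0.08, and 56 of 82 members, among them 25 of the 29 small-subunit and 28 of the 43 large-subunit genes, lay above the median gene, against 80 of 82 at 16 h. The gap of 0.10 at 72 h, against 0.27 at 16 h, depended on the scaling and the filter: it was 0.21 with quantile normalization, where the median member lay at 0.15 and 71 of 82 were above 0, and 0.19 with no filter on dim probes. The gap was 0.06 within slide 3 and 0.07 with the Y-linked covariate, where the median member lay at -0.07 and -0.04. With 1 array left out it ran from 0.03, without WT PBS replicate 3, to 0.16, without WT doxorubicin replicate 3. It was 0.04 without WT doxorubicin replicate 4. The times were not compared by a test.

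The paralogue pair Rpl3 and Rpl3l moved in opposite directions at this time without passing the threshold. Rpl3 was 5.66, 5.36 and 5.56 in WT PBS and 5.99, 6.62 and 6.30 in WT doxorubicin, 0.78 ± 0.25 (SE, adjusted p = 0.102), and Rpl3l was 5.82, 5.70 and 5.82 against 5.54, 4.68 and 4.93, -0.73 ± 0.21 (SE, adjusted p = 0.0762). For neither gene did the groups overlap, and with slide as a block both passed, with Rps19bp1, to make 3 called members. Rpl22l1 was again higher on all 3 doxorubicin arrays, at 5.03, 4.95 and 5.39 against 4.63, 4.37 and 4.56, 0.61 ± 0.19 (SE, adjusted p = 0.0981). For Rps27l the difference was -0.09 ± 0.22 (SE, adjusted p = 0.845).

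Across the 12 arrays of 72 h, Rpl3 and Rpl3l ran against each other, with Pearson's r = -0.884 (permutation p = 2e-05, adjusted p = 0.00024) and Spearman's rho = -0.874 (permutation p = 0.00054, adjusted p = 0.00324). Without the 2 arrays farthest from the median of Rpl3, r was -0.835, within the 8 arrays of slide 3 it was -0.928, and after subtracting the group means it was -0.762. At 16 h r was -0.514 (permutation p = 0.0857, adjusted p = 0.147) and rho -0.580 (permutation p = 0.0523, adjusted p = 0.135). The arrays of one time share slides and the scaling of each array acts on both genes alike. These were 2 of 12 relations computed for 6 pairs of a canonical subunit and its relative. Of the other pairs at 16 h, Rps27 and Rps27l had r = 0.836 (permutation p = 0.00065, adjusted p = 0.0026), but 0.251 after the group means, and Rps19 and Rps19bp1 had r = 0.862 (permutation p = 0.00025, adjusted p = 0.0015), and 0.628 after them. At 72 h the latter pair had r = -0.786 (permutation p = 0.00389, adjusted p = 0.0117), and 0.248 after the group means.

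**Figure D5:**
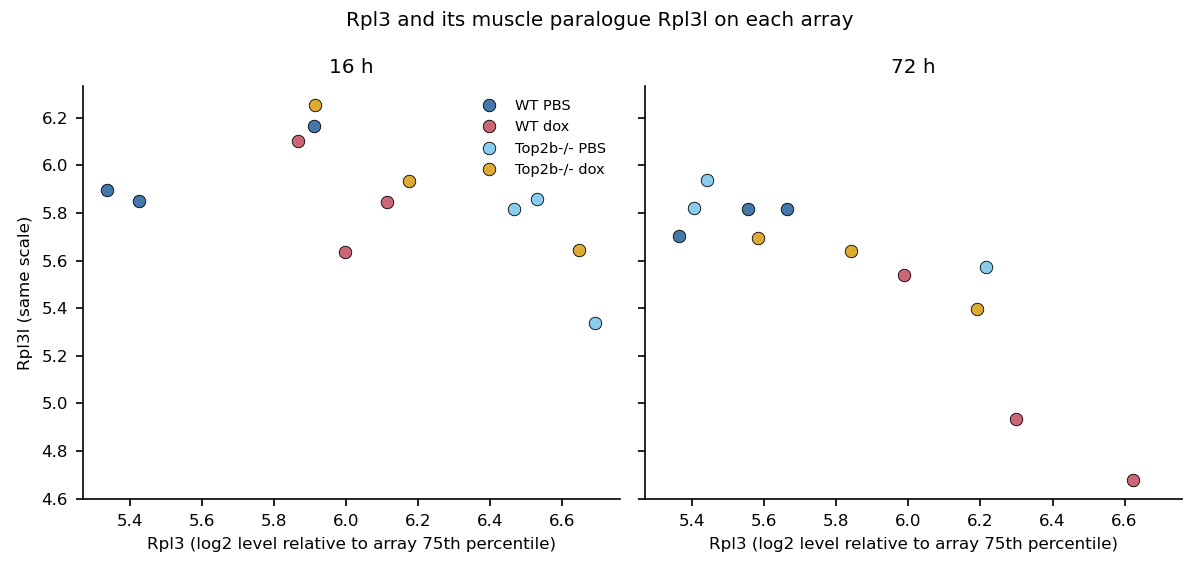
Level of Rpl3l (y axis) against Rpl3 (x axis), both log2 relative to the array's 75th percentile, on each of the 12 arrays of 16 h and of 72 h; points are arrays, coloured by group. At 72 h (r = -0.884) the 3 WT doxorubicin arrays include the lowest Rpl3l levels, 4.68 and 4.93; at 16 h (r = -0.514) the points spread more widely.

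In Top2b-/- hearts at 72 h, 0 of 82 members and 0 of 19659 genes were called after doxorubicin (0%; 0 members and 430 genes at an unadjusted p under 0.05), the difference of responses had 0 members and 0 genes (0%; 2 members and 1385 genes at an unadjusted p), and in PBS 0 members differed between genotypes (2.15% of all genes did, 1.07% higher and 1.08% lower; 1 member at an unadjusted p), all by limma. The median member lay at -0.02 in the first and at 0.01 in the last of these comparisons. Rpl10 shows how 1 spot can set a value: the probe used read 6.38 on WT doxorubicin replicate 4 and at least 8.02 on the other arrays, which gave a difference of -0.53 ± 0.43 (SE, adjusted p = 0.489) at 72 h in WT, whereas its other probes read 8.43 and 8.34 on that array and gave differences of 0.21 and 0.18.

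Genes that work with these proteins were followed through 4 lists, described here by their counts, beside the 13.7% of all genes called higher and the 14.1% called lower in WT hearts 16 h after doxorubicin. Of 7 tested subunits whose names fall outside the rule, 1 was called higher (14.3%, near the share of all genes), Fau, which encodes Rps30, at 0.48 ± 0.09 (SE, adjusted p = 0.00381). Of 16 other mRNAs with a TOP tract, 6 were higher (37.5%) and 0 lower, with a median of 0.26 against -0.03 for all genes. Among them were Npm1, the nucleolar chaperone nucleophosmin, at 0.79 ± 0.15 (adjusted p = 0.00393), Nap1l1, a histone chaperone, at 0.69 ± 0.11 (adjusted p = 0.00116), the RNA-binding protein Hnrnpa1 at 0.59 ± 0.13 (adjusted p = 0.00664) and Eif3e, an initiation factor subunit, at 0.56 ± 0.13 (adjusted p = 0.00904). Of 19 tested chaperones, carriers and partners of ribosomal proteins, 9 were higher (47.4%) and 0 lower, with a median of 0.28. That list also holds Nap1l1 and the members Rpl5 and Rpl11, and Rpl5 is among the 9. Its count is therefore not separate from that of the members. Mdm2 led at 1.03 ± 0.15 (SE, adjusted p = 0.00078), with Rrs1, needed to assemble the 5S particle, at 0.82 ± 0.14 (adjusted p = 0.00243) and the import receptor Ipo7 at 0.70 ± 0.14 (adjusted p = 0.00512).

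Of the 22 regulators of TOP mRNAs and of Rps6, 17 were not called, 1 was higher (4.55%, against 13.7% of all genes) and 4 were lower (18.2%, near the 14.1% of all genes), with a median of -0.20. Tia1, an RNA-binding protein that represses TOP mRNAs, fell by 2.11 ± 0.34 on the log2 scale (SE, adjusted p = 0.00166), Rptor, the scaffold of mTORC1, by 0.93 ± 0.24 (adjusted p = 0.0162) and the kinase gene Rps6ka2 by 0.74 ± 0.14 (adjusted p = 0.00341). Sesn2, a stress-induced inhibitor of mTORC1, rose by 0.92 ± 0.25 (adjusted p = 0.0188). In Top2b-/- hearts 0 members of any of the 4 lists were called after doxorubicin at either time. In PBS at 16 h, Eef1a1, the elongation factor with a TOP tract, was 1.85 ± 0.27 higher in Top2b-/- than in WT (SE, adjusted p = 0.00243), and Ddit4, an inhibitor of mTORC1, 0.77 lower (log2 difference -0.77 ± 0.18, adjusted p = 0.0197). At 72 h in WT, Larp4, which binds poly(A) tails, fell by 0.63 ± 0.13 (SE, adjusted p = 0.0373), 1 of 22 regulators; 0 members of the other 3 lists were called.

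Markers of other cell types were called in the same comparisons, and their counts stand beside the shares of all genes given with each. In WT after doxorubicin at 16 h, where 14.1% of all genes were lower and 13.7% higher, 4 of 6 smooth muscle and pericyte markers were lower, with a summed log2 level of 4.81 to 5.11 against 6.30 to 6.68 in PBS. Of the fibroblast markers 4 of 7 were lower, with overlapping summed levels, 4.46 to 5.65 against 4.59 to 5.16. Of the endothelial markers 2 of 7 were lower, and 3 of 4 tested neutrophil markers were higher, with 1 of the 4 well above background on no WT PBS array. The median log2 difference of the 4 neutrophil markers was 2.68. Their summed level overlapped, however, at 6.06 to 6.64 in doxorubicin and 6.33 to 6.37 in PBS. A summed level adds linear values over probes, so the brightest marker weighs most and it can hide changes of dimmer ones. In PBS at 16 h, 4 of 7 fibroblast markers were higher in Top2b-/- (6.72% of all genes were), with a summed level of 5.50 to 6.60 against 4.59 to 5.16 in WT. There 2 of 7 endothelial and 2 of 6 smooth muscle and pericyte markers were lower (5.65% of all genes were). Their summed levels were 4.27 to 4.60 against 4.67 to 5.10 in WT for endothelial markers. For smooth muscle and pericyte markers they overlapped, at 6.49 to 6.78 against 6.30 to 6.68. At 72 h 3 of 5 tested neutrophil markers were higher in WT after doxorubicin (0.997% of all genes were), with a median log2 difference of 3.45 over the 5. All 5 were well above background on every WT doxorubicin array, but 1 on every WT PBS array and 2 on none of them. Markers could thus enter the test through the group where they are high, and the count is no separate support. The summed neutrophil level was 6.998 to 7.85, median 7.54, against 6.70 to 7.95, median 7.88, in PBS. Fewer cells of a type and less RNA per cell cannot be told apart in such samples, and the part of these cell types in the members' values was not tested.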

How the data were processed

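For every array the authors deposited the output of Agilent Feature Extraction, version 10.7.3.1 per the file headers, with the background-subtracted processed intensity of each spot, linear and not normalized between arrays. A deposited value table held a ratio, the processed signal over the array's median (SD of the log2 difference at most 1.5e-06), and served as an alternative. The processed signal was taken to log2, the 75th percentile of each array (145.7 to 282.2) was subtracted, outlier spots (89 to 277 per array) were set to missing, and spots of a probe were averaged. A probe was kept at a time if well above background on all 3 arrays of a group; the brightest kept probe stood for a gene. The 4 groups of a time were fitted with limma 3.58.1 in R 4.3.3 (residual df 8), with Benjamini-Hochberg adjustment over all genes. The procedure was tested on simulated data. The number of arrays limits the precision. Members, lists and alternatives were chosen with earlier results of these data known. In each comparison the named members are up to 8 rises and 8 falls past 0.05 with no overlap between groups, the paralogues with their partners, Rpl5, Rpl11 and Rps6, and from each list up to 4 genes with the smallest adjusted p; the ends of the range, Rps2, Rps4x, Rps25 and genes named only by their call were added after their values were seen.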

Additional observations from a re-analysis of the deposited data

Results flagged for a closer look

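For 6 members the doxorubicin response at 16 h differed between genotypes by the test of the difference itself (limma, 3 arrays per group), 7.32% of members against 11.3% of all genes in either direction and 5.24% lower. With slide as a block 0 of the 6 were called, with 2% of all genes called in either direction. The difference, Top2b-/- minus WT on the log2 scale, was -1.07 for Rpl22l1, -0.77 for Rps27l, -0.71 for Rpl12, -0.59 for Rps19, -0.59 for Rps12 and -0.56 for Rps27. All 6 were higher in the 3 WT doxorubicin arrays than in the 3 WT PBS arrays.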

How the results depend on the processing

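The number of members past the threshold in WT after doxorubicin at 16 h (19) was 7 with no filter on dim probes, 7 with the authors' value table, 7 with Y-linked transcripts as a covariate, 5 within slide 1, 0 with the genotypes of the conflicting label field, and 5 to 25 when 1 array was left out. Scaling to the canonical subunits, which takes out the members' shared shift by construction, gave 5. This scaling and WT PBS replicate 3 as the only array of its group, like the genotype averaged over treatments, were chosen after seeing the data. For the difference of responses at 16 h (6) the counts were 1 with no filter, 1 with the value table, 0 with slide as a block, 3 with the Y-linked covariate, 0 with the other genotype field, 2 with the scaling to subunits, 0 with replicate 3 alone, and 1 to 8 with 1 array left out. For Top2b-/- against WT in PBS at 16 h (8) they were 21 with normexp, 4 with no filter, 4 with slide as a block, 2 with the Y-linked covariate, 2 within slide 1, 0 with the other genotype field, 0 with replicate 3 alone, and 2 to 11 with 1 array left out. For WT after doxorubicin at 72 h (1) they were 0 with quantile normalization, 0 with scaling to the median, 0 with no filter, 3 with slide as a block, 0 with the Y-linked covariate, 0 within slide 3, 0 with the scaling to subunits, and 0 to 1 with 1 array left out. The share of all genes called changed as well. For the difference of responses it was 11.3% in the main fit, 2% with slide as a block and 16.2% with the Y-linked covariate. For the genotypes in PBS at 16 h it was 12.4%, 6.49% and 9.46% in the same order. The cause of these changes was not tested, except that the settings that leave out arrays or stay within a slide have fewer arrays and no filter tests more genes.

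The median member minus the median gene (0.27, -0.23 and 0.20 in the first 3 of these comparisons) was 0.12, -0.11 and 0.0746 with WT PBS replicate 3 alone. It ran from 0.23 to 0.34, from -0.31 to -0.18 and from 0.17 to 0.26 with 1 array left out. The third was 0.29 with normexp and 0.38 with no filter, which also gave 0.15 for the genotypes in PBS at 72 h. For WT after doxorubicin at 72 h (0.10) it was 0.21 with quantile normalization and 0.19 with no filter. It was 0.06 within slide 3, 0.07 with the Y-linked covariate, and 0.03 to 0.16 with 1 array left out. With the other genotype field the Top2b difference at 16 h was -0.26.

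The labels state no pairing of arrays by replicate number. Deviations of same-numbered arrays correlated at -0.12 to 0.29 at 16 h and 0.0004 to 0.73 at 72 h. Of 12 arrays, 8 at 16 h and 11 at 72 h correlated best with their own number. At 72 h the median r for numbers 2, 3 and 4 was 0.39, 0.22 and 0.48, against -0.16, -0.03 and -0.36 with other numbers. The main fit leaves this out. For WT after doxorubicin at 72 h it called 2.81% of all genes, against 16.8% with the replicate number as a block. With the replicate number as a block the 4 counts were 13, 2, 5 and 5; the last, 3 higher and 2 lower, reversed the balance of the main count.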
